A study of Mus musculus with 5 samples.

Results

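The 30 genes described here encode enzymes of sterol synthesis, the SREBP proteins and their partners, a sterol carrier, and enzymes that make and desaturate fatty acids. They were chosen by name as known members of this pathway, with earlier results of these data known. Each was read from the probes whose RefSeq accession belongs to it. A probe was found for 29 of the 30 genes, out of 22903 genes with a named probe, and Acat2 had none. All 29 were well above background on all 5 arrays, so none of the values below is a bound and no member was lost to a filter on dim signal.

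The cells were B16F1, a mouse melanoma line, and RNA of each culture was hybridised to 1 Agilent array with 1 dye. Wild-type cells received vehicle, TGF-β1 at 10 ng/ml, or the same TGF-β1 dose plus CCG1423 at 10 µM, a small molecule that inhibits the actin-controlled MRTF coactivators, with 1 array for each condition. Knockout cells of Tmsb4x, which encodes the actin monomer-binding peptide thymosin β4, received TGF-β1 at 10 ng/ml on 2 arrays, 1 for each of 2 clones. Treatments lasted 2 days, and no duration is given in the labels for the vehicle culture. The design text speaks of a knockdown where the labels speak of a knockout, the treatment field of the inhibitor array names CCG1423 alone where its title names both agents, and the labels do not say how the clones were edited or whether an unedited clone was made. A clone and its knockout therefore cannot be told apart, also where both clones share a difference from wild-type cells.

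Cells build cholesterol from acetyl-CoA through HMG-CoA, mevalonate, isoprenyl diphosphates, squalene and lanosterol. Transcription of these enzymes is driven by SREBP-2 and SREBP-1, which SCAP escorts out of the endoplasmic reticulum when sterols are scarce and which INSIG proteins hold back when sterols are plentiful. SREBP-1 also drives fatty acid synthesis and desaturation, and growing tumour cells draw on both branches for membranes.

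SREBPs bind sterol elements close to gene starts, usually beside sites for the general factors NF-Y and Sp1. Promoter windows of 250 bases before to 50 bases after a start were held by RefSeq (GRCm38.p6) for 23 of the 30 genes, in 31 windows. Windows are shown for 3 members far lower on the inhibitor array (Insig1, Nsdhl and Fasn), for Hmgcs1, which holds the sterol element, and for Tm7sf2 and Ggps1, which differed little there, to show how the same letters recur. Capitals mark any match, on either strand, to a sterol element TCACNCCAC, an NF-Y box CCAAT, a GC box GGGCGG or an E-box CACGTG.
Insig1, chr5:28071162-28071461, plus strand: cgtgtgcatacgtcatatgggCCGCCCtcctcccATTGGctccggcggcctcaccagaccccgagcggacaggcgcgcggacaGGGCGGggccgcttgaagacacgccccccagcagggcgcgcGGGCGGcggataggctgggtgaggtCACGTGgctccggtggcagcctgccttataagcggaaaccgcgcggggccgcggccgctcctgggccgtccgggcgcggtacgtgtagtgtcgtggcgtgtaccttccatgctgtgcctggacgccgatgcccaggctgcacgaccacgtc
Nsdhl, chrX:72918271-72918570, plus strand: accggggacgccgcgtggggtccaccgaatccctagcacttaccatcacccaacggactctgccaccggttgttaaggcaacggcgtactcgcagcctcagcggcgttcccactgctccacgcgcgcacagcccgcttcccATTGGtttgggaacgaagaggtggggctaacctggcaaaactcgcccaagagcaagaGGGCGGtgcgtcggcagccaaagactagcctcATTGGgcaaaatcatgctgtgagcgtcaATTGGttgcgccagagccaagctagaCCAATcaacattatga
Fasn, chr11:120824498-120824797, minus strand: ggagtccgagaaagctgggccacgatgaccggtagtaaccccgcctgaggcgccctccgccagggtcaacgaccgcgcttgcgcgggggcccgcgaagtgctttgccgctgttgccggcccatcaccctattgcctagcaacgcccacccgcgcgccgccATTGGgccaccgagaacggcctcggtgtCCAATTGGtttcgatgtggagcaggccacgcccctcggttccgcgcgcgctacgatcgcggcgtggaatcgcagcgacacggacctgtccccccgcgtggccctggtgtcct
Hmgcs1, chr13:119690101-119690400, plus strand: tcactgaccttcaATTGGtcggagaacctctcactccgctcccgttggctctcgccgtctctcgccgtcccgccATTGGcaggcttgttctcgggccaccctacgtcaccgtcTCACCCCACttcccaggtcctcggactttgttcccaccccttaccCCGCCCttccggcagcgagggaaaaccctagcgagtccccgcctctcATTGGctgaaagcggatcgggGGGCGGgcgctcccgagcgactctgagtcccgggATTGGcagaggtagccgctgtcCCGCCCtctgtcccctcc
Tm7sf2, chr19:6067801-6068100, minus strand: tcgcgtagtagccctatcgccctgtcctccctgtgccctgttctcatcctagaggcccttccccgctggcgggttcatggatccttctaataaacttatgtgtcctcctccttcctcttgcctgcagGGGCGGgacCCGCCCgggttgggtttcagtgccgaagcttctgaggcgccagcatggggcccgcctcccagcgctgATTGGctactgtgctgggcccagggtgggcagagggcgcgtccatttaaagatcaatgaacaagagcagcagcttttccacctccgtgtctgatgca
Ggps1, chr13:14063439-14063738, minus strand: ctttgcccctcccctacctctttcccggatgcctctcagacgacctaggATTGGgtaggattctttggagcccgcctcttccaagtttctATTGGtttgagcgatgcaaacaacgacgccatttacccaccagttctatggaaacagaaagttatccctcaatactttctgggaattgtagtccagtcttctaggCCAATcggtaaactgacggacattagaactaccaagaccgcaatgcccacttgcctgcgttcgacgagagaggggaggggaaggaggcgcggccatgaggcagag

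Hmgcs1 was the only member with the exact sterol element letters, 137 bases before its start, which makes 1 of 31 member windows (3.23%) against 1.24% of all 32851 windows in the table. The NF-Y box was present in 21 of 31 member windows (67.7%) against 37.4% of all windows, and the GC box in 24 (77.4%) against 35.7%. The E-box was present in 6 member windows (19.4%) against 7.15%. In Fasn 2 of the NF-Y matches overlap, 1 on each strand. These are counts of letters in windows that can overlap within a gene, and they show neither binding nor its absence. The NF-Y box was in 11 of 14 windows of members 2-fold lower with the inhibitor and in 3 of 8 windows of members whose log2 difference there lay above -0.5. The GC box was in 11 of the same 14 and 6 of the same 8, and the E-box in 3 and 2. Some genes hold several windows, so windows are not replicates, and the split was not tested. Ggps1 carried 3 NF-Y matches, and Tm7sf2 carried 1 NF-Y match and 2 GC matches. Windows not printed for other members above -0.5 differed: those of Scap and Fads2 held no NF-Y match, and Insig2 held it in part of its windows.

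Levels below are log2 processed signals minus the array's own 75th percentile, so 0 is the 75th percentile of that array's probes, and levels of different genes are not compared. The 75th percentile lay between 230 and 329 signal units, 48.2% to 53.8% of probes were well above background on an array, and no spot was saturated. All arrays were on the same slide and in the same scan per the file headers. Tmsb4x stood at 5.05 with vehicle, 7.12 with TGF-β1, 6.79 with the inhibitor, and 5.44 and 4.28 in clones 1 and 2 (limma adjusted p = 0.0864 for the clones against wild type), and a probe outside an edited part would not report the loss. Pigment cell markers (Tyr, Tyrp1, Dct, Pmel, Mlana, Mitf, Sox10 and Slc45a2) were well above background on all arrays. Of 4 hepatocyte markers 0 were detected on any array, and of 4 adipocyte markers 1. Detected fibroblast markers numbered 1 of 6 on the vehicle array and 0 on every other array. On each array 1 or 2 of 6 epithelial markers were detected, and 0 or 1 of 4 endothelial markers. Ptprc and Adgre1, defining immune markers, were not well above background on any array, while 3 or 4 of the 6 immune markers were.

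**Figure D1:**
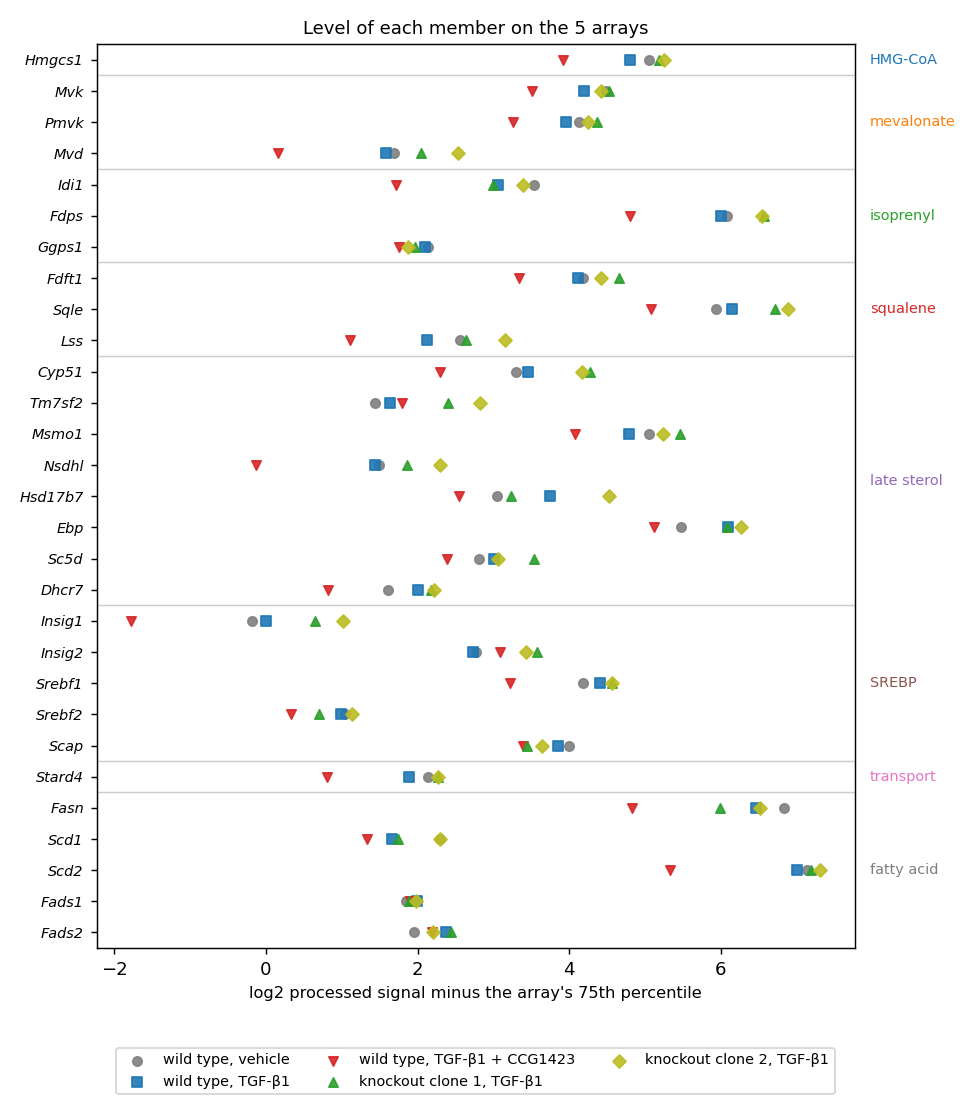
Level of the 29 members on each of the 5 arrays, as log2 processed signal minus the array's 75th percentile, with genes grouped by pathway step and 1 point for each array. The inhibitor array (red triangles) is the lowest of the 5 for 25 members by the probes used. Tm7sf2, Insig2, Fads1 and Fads2 are the exceptions.

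The first comparison asks how CCG1423 changes cells that receive TGF-β1. Most sterol enzymes, with Fasn and Scd2 of the fatty acid branch, were lower on the inhibitor array: 27 of 29 members lay below the array with TGF-β1 alone, 14 of them at 2-fold or more, and 0 were 2-fold higher. Over all genes, 6.98% were 2-fold lower and 6.01% were 2-fold higher (13.0% in all). The members' median log2 difference was -0.97, against -0.05 over the 14054 genes compared. Each side is 1 array, so the differences have no replicate check. The inhibitor array was the lowest of the 5 for 25 of 29 members, against 34.0% of genes measured on all arrays. In such bulk samples fewer cells of a type and less RNA per cell cannot be told apart. As a measure of spread, the 2 clones, which shared a treatment, differed from each other by less than the inhibitor difference in 25 of 29 members, against 59.1% of genes measured on all arrays.

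The pathway starts with Hmgcs1, the synthase that makes HMG-CoA. It read 5.05 on the vehicle array, 4.80 after TGF-β1 and 3.91 once CCG1423 was added, while clones 1 and 2 read 5.18 and 5.25. The inhibitor array was the lowest, 1.85-fold below TGF-β1 alone, and the other arrays lay close together. Mvk and Pmvk, the kinases that phosphorylate mevalonate, were 1.61-fold and 1.62-fold lower. Mvd, the decarboxylase that follows them, stood at 1.69 with vehicle, 1.59 with TGF-β1, 0.15 with the inhibitor, 2.05 in clone 1 and 2.53 in clone 2. The inhibitor array lay 2.71-fold below TGF-β1 alone, and both clones lay above all wild-type arrays.

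Idi1, the isomerase of isopentenyl diphosphate, stood at 3.54, 3.06 and 1.71 in wild-type cells under vehicle, TGF-β1 and the inhibitor, and at 2.99 and 3.39 in clones 1 and 2. It was 2.55-fold lower with the inhibitor. Fdps, the farnesyl diphosphate synthase, stood at 6.08, 6.01 and 4.80 in the wild-type arrays in the same order, and at 6.57 and 6.54 in the clones. The inhibitor difference was 2.31-fold. Ggps1 makes geranylgeranyl diphosphate on the branch to protein prenylation rather than to sterols, and its levels spanned only 1.75 to 2.13 over the 5 arrays. With the inhibitor it differed by -0.34 on the log2 scale by the probe used, and its other 4 probes gave values from -0.04 to 0.11.

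Squalene is made by Fdft1, oxidised by Sqle and closed to lanosterol by Lss. Sqle stood at 5.93 with vehicle, 6.14 with TGF-β1, 5.07 with the inhibitor, 6.71 in clone 1 and 6.89 in clone 2. The order was inhibitor, vehicle, TGF-β1 and then the clones, with 2.10-fold between the inhibitor and TGF-β1 alone. Lss stood at 2.56, 2.12 and 1.11 in the wild-type arrays and at 2.64 and 3.15 in clones 1 and 2. It was 2.02-fold lower with the inhibitor, but its 3 probes gave -1.18, -1.02 and -0.13, the widest range among the 14 members with several probes. Fdft1 was 1.73-fold lower.

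Of the 8 measured enzymes from lanosterol to cholesterol, 7 were lower with the inhibitor and 4 by 2-fold or more. Nsdhl, a dehydrogenase in the removal of methyl groups from the ring, stood at 1.50 with vehicle, 1.43 with TGF-β1, -0.13 with the inhibitor, and 1.86 and 2.30 in the clones. The inhibitor array was 2.96-fold below TGF-β1 alone and below every other array by more than 2-fold. Cyp51, the lanosterol demethylase, was 2.23-fold lower, Dhcr7, which makes cholesterol in the last step, 2.27-fold, and Hsd17b7, a ketoreductase of the same stretch, 2.30-fold. Ebp, a sterol isomerase, was 1.96-fold lower, Msmo1, a methyl oxidase, 1.63-fold, and Sc5d, a desaturase, 1.53-fold.

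Tm7sf2, a sterol reductase of the step after Cyp51, did not follow its neighbours. It read 1.45 on the vehicle array, 1.64 after TGF-β1 and 1.79 once CCG1423 was added, and clones 1 and 2 read 2.41 and 2.82. The inhibitor array was the highest of the wild-type arrays, and the clones were higher still. The difference from TGF-β1 alone was 0.15 on the log2 scale, and its other probe gave 0.17.

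Among the regulators, Insig1 and Insig2, related proteins that hold SCAP in the endoplasmic reticulum, went opposite ways on the inhibitor array. Insig1 stood at -0.18 with vehicle, 0.01 with TGF-β1, -1.78 with the inhibitor, and 0.65 and 1.01 in clones 1 and 2. Its 3.45-fold difference from TGF-β1 alone was the widest of the 29 members. With normexp background correction it was -1.11 on the log2 scale and no longer the widest, as Scd2 gave -1.72 there. Insig2 stood at 2.77, 2.72 and 3.09 in the wild-type arrays and at 3.57 and 3.43 in the clones. Its inhibitor difference was 0.37, with 0.38 and 0.54 by its other 2 probes.

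Srebf1, which encodes SREBP-1, stood at 4.18 with vehicle, 4.40 with TGF-β1, 3.22 with the inhibitor and 4.56 in each clone. It was 2.28-fold lower with the inhibitor, while the 2 clones did not differ from each other at that precision. Whether the 1 probe used separates the SREBP-1 isoforms is unknown, since its letters are not given. Srebf2, which encodes SREBP-2, was 1.59-fold lower and Scap 1.38-fold. Stard4, a cytosolic carrier of cholesterol, stood at 2.13, 1.89 and 0.81 in the wild-type arrays and at 2.28 and 2.27 in the clones, which makes it 2.12-fold lower with the inhibitor.

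The fatty acid branch was split. Fasn, the fatty acid synthase, stood at 6.83 with vehicle, 6.46 with TGF-β1, 4.82 with the inhibitor, 5.99 in clone 1 and 6.52 in clone 2. Scd2, a stearoyl-CoA desaturase, stood at 7.14, 7.003 and 5.325 in the wild-type arrays and at 7.18 and 7.31 in the clones. Both were far lowest with the inhibitor, 3.12-fold for Fasn and 3.20-fold for Scd2. Scd1, a second desaturase of the same family, was 1.26-fold lower. Fads1 and Fads2, which desaturate polyunsaturated chains, differed by -0.09 and -0.19 on the log2 scale by the probes used. Their other probes gave -0.38 and -0.50. Against vehicle, Fads2 on the inhibitor array lay at 0.24 by the probe used and at -0.25 by its other probe. The files hold no probe letters, so cross-hybridisation between Scd1 and Scd2 was not tested.

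**Figure D2:**
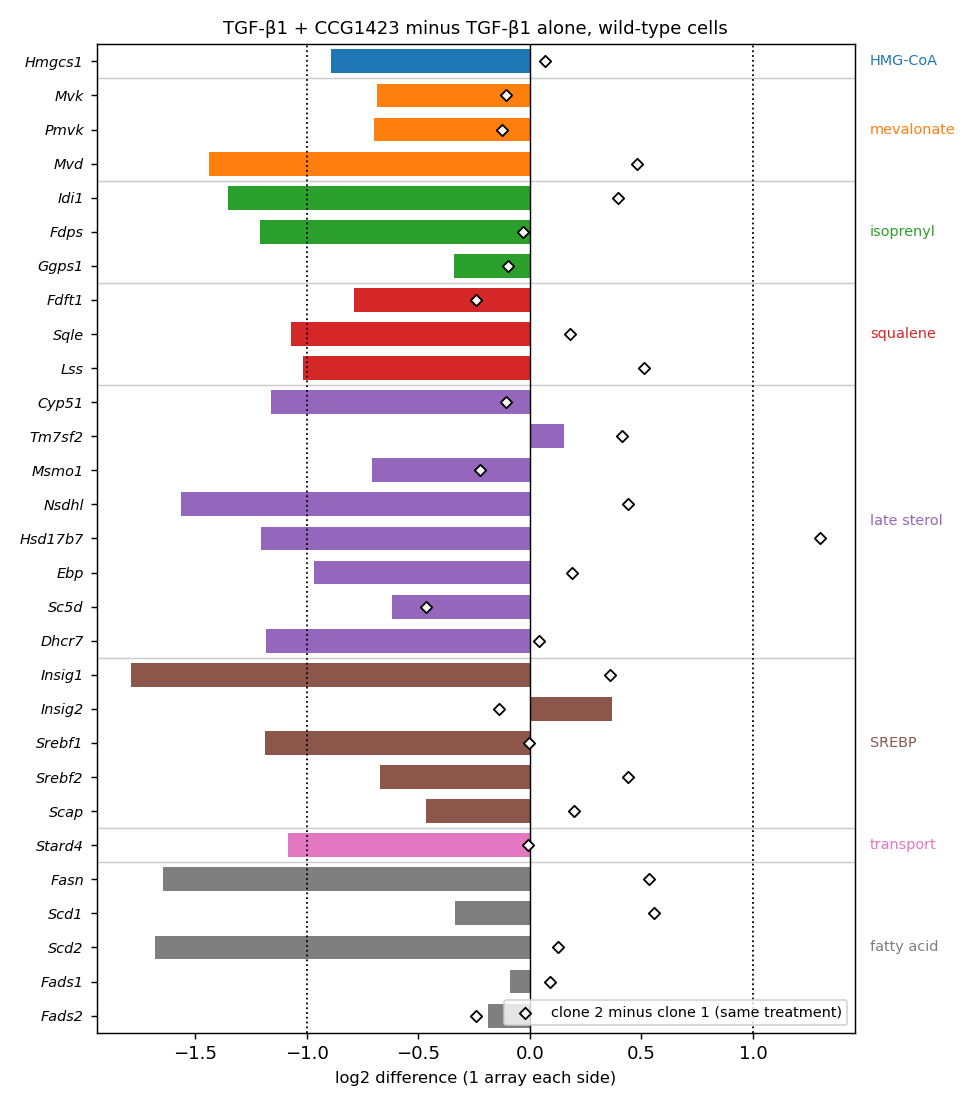
Bars give the log2 difference of each member between the array with TGF-β1 and CCG1423 and the array with TGF-β1 alone, and diamonds give clone 2 minus clone 1, which shared a treatment; dotted lines mark 2-fold. 14 bars reach 2-fold on the lower side and only Tm7sf2 and Insig2 point up, while 1 diamond, that of Hsd17b7, passes 2-fold.

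When the single arrays were assumed to vary like the 2 clones, a limma fit over all 5 arrays called 2 of the 29 members lower with the inhibitor at an adjusted p of 0.05, Insig1 (adjusted p = 0.0476) and Scd2 (adjusted p = 0.0475). The same fit called 1.11% of all genes lower. Direction did not depend on the scaling, since 27 of 29 members lay below 0 under each of 5 other scalings or background corrections and with the mean over probes.

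The inhibitor array was also compared with vehicle, which shares that array with the comparison above. Here 25 of 29 members were lower and 11 by 2-fold or more, against 8.06% of all genes at 2-fold lower and 15.6% in either direction. Fasn was 4.03-fold lower than with vehicle, Idi1 3.54-fold and Scd2 3.51-fold. Hmgcs1 was 2.21-fold lower and Stard4 2.50-fold. The median was -0.96, against -0.05 over all genes. Ebp and Hsd17b7 stood nearer to vehicle, 1.27-fold and 1.42-fold lower. Against every other array at once, 10 of 29 members were at least 2-fold lower on the inhibitor array, against 1.92% of the 12055 genes measured on all arrays. In the limma fit with the clones' spread, 8 members passed against vehicle, against 2.49% of genes called lower.

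Next, TGF-β1 was compared with vehicle in wild-type cells. No member differed by 2-fold, against 8.22% of 14142 genes, and the members' median was -0.06 against -0.05 over all genes. All 7 measured members from Hmgcs1 to Ggps1 lay below 0, at -0.04 to -0.48 on the log2 scale, beside 57.2% of all genes, but 2 other probes of Ggps1 gave 0.06 and 0.05. From lanosterol onwards 6 of 8 lay above 0, and the difference between the steps was not tested. The late members above 0 included Hsd17b7 (0.70), Ebp (0.62) and Dhcr7 (0.39). With the authors' own scaling, which moves the median of all genes from -0.05 to 0.06, 4 of the 7 early members were lower and 7 of the 8 late ones were higher.

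Hsd17b7 stood at 3.05 with vehicle, 3.74 with TGF-β1, 2.54 with the inhibitor, 3.23 in clone 1 and 4.53 in clone 2. The clones lay on either side of the wild-type TGF-β1 array, 1.30 apart on the log2 scale, and its other probe gave 1.28 for the same difference. Scd1 stood at 2.30 with vehicle, 1.67 with TGF-β1, 1.33 with the inhibitor, 1.74 in clone 1 and 2.29 in clone 2. It had the largest difference below vehicle among members with TGF-β1, at -0.63, and clone 2 matched vehicle. In the limma fit with the clones' spread, 0 members passed for TGF-β1 against vehicle (lowest adjusted p = 0.918), against 2.44% of all genes. At an unadjusted p under 0.05 there were also 0, against 8.60% of genes.

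The last comparison sets the Tmsb4x knockout clones against wild-type cells, all with TGF-β1, and it is the only one with a replicate group. Most sterol genes stood higher in the clones, by amounts that did not pass the test. Pigment cell markers stood higher there too, 6 of 8 with a median of 0.31, beside 49.5% of all genes above 0. Among them were Tyr at 1.27 (limma adjusted p = 0.708) and Slc45a2 at 1.005 (limma adjusted p = 0.489). The clones differed for Tyr, with 1.92 in clone 1 and 0.62 in clone 2. The part of the markers in the sterol values was not tested. Both clones lay above the wild-type array in 20 of 29 members and both below it in 3, against 32.5% and 32.4% of all genes. Among the 18 measured sterol enzymes, both clones were above in 14. No member was 2-fold higher or lower in both clones, against 2.28% of genes. The median was 0.38 in clone 1 and 0.33 in clone 2, against 0.01 and -0.00 over all genes.

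In limma 0 of 29 members passed an adjusted p of 0.05 (lowest adjusted p = 0.466), against 31 of 13726 genes (0.226%). At an unadjusted p under 0.05 there were 5 members, against 5.76% of all genes. Nothing in the labels tells whether the clones were cultured apart, so the p-values describe no more than the scatter of these samples, and that scatter comes from the 2 clones with 1 residual degree of freedom.

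Those 5 members were Tm7sf2, Insig2, Cyp51, Lss and Insig1. Tm7sf2 differed by 0.97 on the log2 scale (SE 0.30, limma adjusted p = 0.466), with 0.77 in clone 1 and 1.18 in clone 2. Insig2 differed by 0.78 (SE 0.28, limma adjusted p = 0.624), and its other 2 probes gave 0.87 and 0.86.

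Cyp51 stood at 3.30 with vehicle, 3.45 with TGF-β1, 2.29 with the inhibitor, 4.27 in clone 1 and 4.17 in clone 2. Its knockout difference was 0.77 (SE 0.28, limma adjusted p = 0.648), and the clones lay above all wild-type arrays. Lss differed by 0.52 in clone 1 and 1.03 in clone 2 (limma adjusted p = 0.761), and Insig1 by 0.64 and 1.00 (limma adjusted p = 0.772). For these 3 genes, as for all 29 members, the wild-type TGF-β1 array is the reference of both the inhibitor and the knockout difference. Opposite signs are therefore not independent. Both clones stood above vehicle in 22 of 29 members, against 34.3% of genes measured on all arrays, a comparison in which genotype and TGF-β1 treatment differ together.

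Among the 5 regulators both clones were above wild type in 3 (Insig1, Insig2 and Srebf1), and among the 5 fatty acid genes in 2 (Scd1 and Scd2). Both clones were below it for Scap, at -0.41 and -0.21, and for the isoprenyl enzyme Ggps1, at -0.12 and -0.22. Srebf2 lay at -0.29 in clone 1 and 0.14 in clone 2, and Fasn at -0.48 and 0.06. Srebf1 stood 0.16 higher in each clone, and Fads1 and Fads2 differed by -0.05 on average. Clone 2 was above clone 1 in 17 of 29 members, against 45.8% of all genes. That count was 22 with quantile normalization (50.3% of all genes) and 28 with the authors' scaling (73.6%). The clones were 2-fold apart in 1 member, Hsd17b7, against 7.58% of genes. Under the authors' scaling, which moves the median of all genes to -0.20 in this comparison, both clones were above in 15 members rather than 20.

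**Figure D3:**
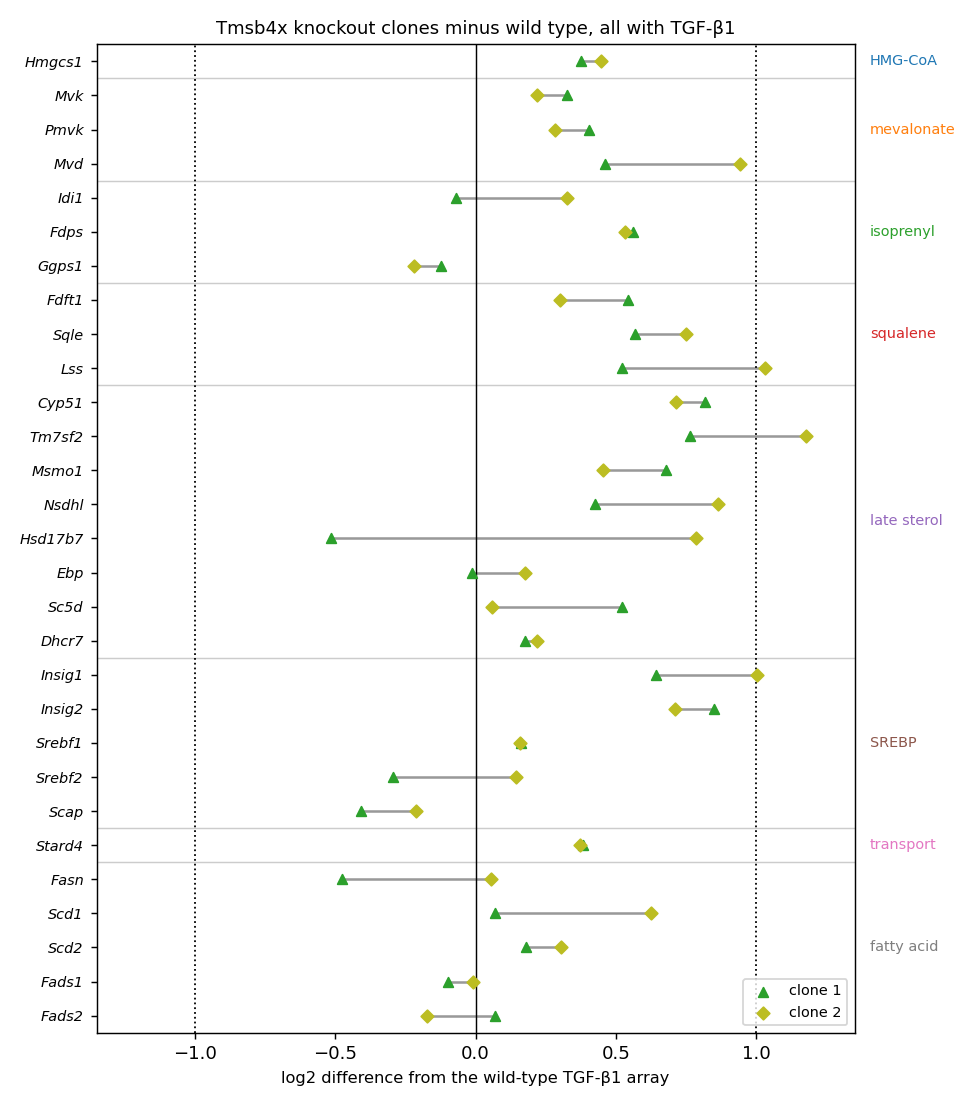
Log2 difference of clone 1 (triangles) and clone 2 (diamonds) from the wild-type TGF-β1 array for each member, joined by a line; dotted lines mark 2-fold. Most sterol enzymes lie to the right of 0 in both clones, no member passes 2-fold in both, and Hsd17b7 has the longest line, from -0.52 to 0.78.

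Other genes of lipid metabolism were counted from 6 lists. Of 12 measured other SREBP targets and sterol enzymes, 11 were lower with the inhibitor and 4 by 2-fold, with a median of -0.65, beside 53.7% of all genes lower and 6.98% at 2-fold lower. Tmem97, a sterol-regulated membrane protein, was 2.15-fold lower. Fatty acid synthesis genes had a median of -0.22 with 0 of 17 at 2-fold, and SREBP processing genes -0.14 with 1 of 13, Ubxn8, 2.53-fold lower. The prenyl branch had a median of -0.28 with 1 of 14 at 2-fold, Pdss1, which makes the side chain of coenzyme Q (2.03-fold lower). All of these counts are on the lower side, and those of 1 gene lie near the 6.98% of all genes.

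Genes that store and move sterols had a median of 0.36, with 11 of 17 above 0 beside 46.3% of all genes, and this was not tested. Soat2, which esterifies cholesterol, was at least 11.3-fold higher with the inhibitor, where alone it was well above background. Soat1, the other esterifying enzyme, named after its value was seen, differed by -0.51. Gramd1b, a sterol transporter between membranes, was 2.59-fold higher. The LXR and efflux list had a median of 0.03, with Nr1h3, the receptor LXRα, at least 2.33-fold higher and also above background on the inhibitor array alone. Such a bound sets the bright array against the lowest signal well above background on the dim one, or against the dim probe's own signal where that is higher, as for Nr1h3. With TGF-β1 against vehicle, 0 measured genes of the 6 lists reached 2-fold, against 8.22% of all genes.

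In the clones, the list of other SREBP targets had a median of 0.39 with 11 of 12 above 0. Over all genes 49.5% lay above 0, with a median of -0.005, and the members' median was 0.34. Aldoc, a glycolytic aldolase, was 2-fold or more higher in both clones, by 2.61 and 1.81 on the log2 scale (limma adjusted p = 0.0512). Trib1 was lower by -1.01 and -1.05 (limma adjusted p = 0.346). Vldlr, a lipoprotein receptor, was not well above background in clone 1 and stood at -1.58 in clone 2 and 0.16 in wild-type cells with TGF-β1 (limma adjusted p = 0.557). Fatty acid synthesis genes had a median of -0.03 and the prenyl branch -0.00. The median was -0.17 for SREBP processing genes, 0.18 for the LXR and efflux list and 0.10 for genes that store and move sterols.

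Pigment cell markers were lower with the inhibitor as well, 8 of 8 beside 53.7% of all genes, with a median of -0.35. Mlana and Mitf were lower by -1.65 and -1.23 on the log2 scale. Cd68, on the immune list, was 2.82-fold higher there. The part of either in the differences of the sterol genes was not tested.

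**Figure D4:**
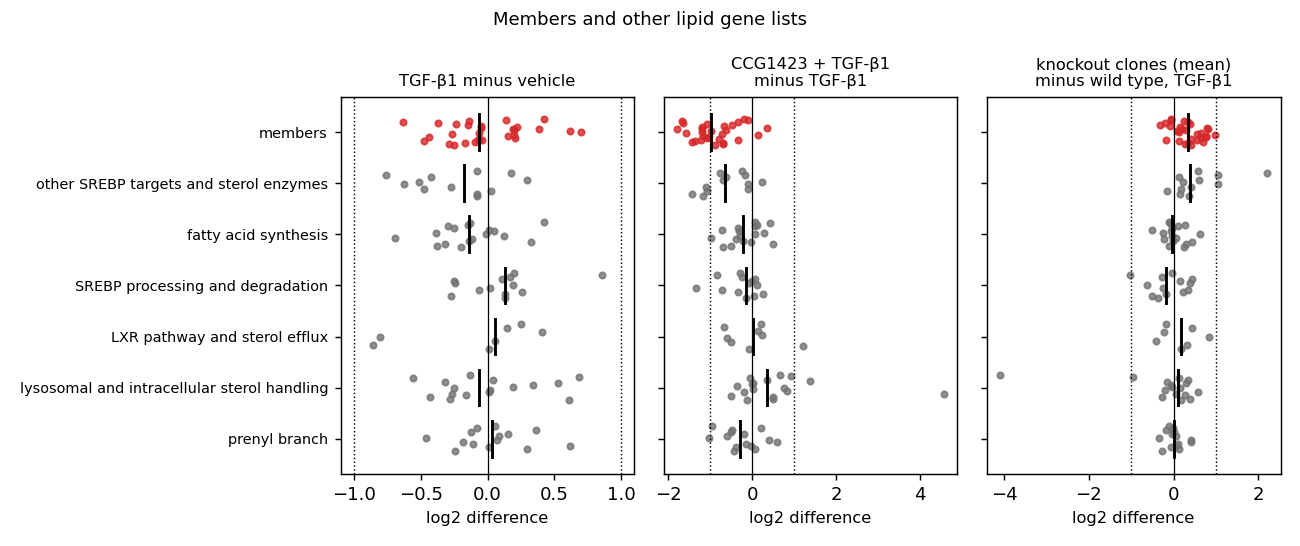
Log2 differences of the 29 members (red) and of the measured genes of 6 other lipid lists (grey) in 3 comparisons, 1 point for each gene, with the median as a black bar and 2-fold as dotted lines; a gene dim on 1 side is drawn at its measured signal. With the inhibitor the members' median is -0.97 and that of sterol handling genes 0.36, and the far right point is Soat2.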

How the data were processed

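RNA of 5 cultures was labelled with Cy3 and read on 5 Agilent arrays. Per the submitters' processing notes and the file headers, the authors used Agilent Feature Extraction 12.0.3.1. Per the file headers, the deposited processed signal is an intensity with background and spatial trend removed inside an array, with no scaling between arrays. The deposited value table holds the same intensity times a constant for each array (log2 -0.01, 0.12, 0.34, -0.17 and -0.08 for vehicle, TGF-β1, CCG1423, clone 1 and clone 2), whose rule is unknown. Flags for outlier spots and for signal well above background, other values of the deposited files, come from the same software, per the file headers.

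Control spots (3671) and outlier spots (107 to 141 per array) were left out, log2 signals were averaged per probe, and the 75th percentile of each array was subtracted. Of 56595 probes, 32983 were named through RefSeq accessions (GRCm38.p6), for 22903 genes, and the brightest probe on average stood for a gene. A gene was compared if all arrays of either group held it well above background. Folds of genes dim on 1 side are bounds against the dimmest detected signal there, or the dim value itself if brighter. Single arrays were compared by fold at 2-fold. For the knockout, limma 3.58.1 (R 4.3.3) was fitted on all 5 arrays in 4 groups (lmFit, eBayes with trend, Benjamini-Hochberg over all genes), where the wild-type array is assumed to vary like the clones; the fit was tested on simulated data. Other steps used Python 3.11.15, numpy 2.4.6 and pandas 2.3.3. The number of arrays limits the precision.

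The members and the lists were chosen with earlier results of these data known. All 30 members are named, and from each other list at most 3 higher and 3 lower genes at 2-fold or more; the pigment and immune markers with values were picked after these were seen. Alternatives changed the background correction, scaling, probe per gene, filter, variance model and samples of the fit; normexp on median signals, the members tested in the limma fit of single arrays, and medians relative to all genes were added after seeing the data.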

Additional observations from a re-analysis of the deposited data

How the results depend on the processing

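Counts of genes moved more than the members. With normexp on median signals, genes at 2-fold numbered 572 for TGF-β1 against vehicle (1162 in the text), 869 for the inhibitor against TGF-β1 (1826), 1189 for the inhibitor against vehicle (2162), 133 for both clones against wild type (313) and 479 between the clones (1049). With only genes well above background on all arrays they numbered 511, 1139, 100 and 476 for TGF-β1, the inhibitor against TGF-β1, the knockout and the clones. The limma fit with the clones' spread called 345 genes for TGF-β1, 278 for the inhibitor against TGF-β1 and 668 against vehicle. In the knockout limma called 31 genes, against 85 with normexp, 53 with the array median, 74 with the percentile over detected probes, 220 with the authors' scaling, 279 without a filter, 184 without a trend, 75 with only the arrays compared, 1 with only genes on all arrays, and 0 with quantile normalization or the mean over probes. No member was called in any of these knockout fits.

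The members' median for the inhibitor against TGF-β1 (-0.97) was -1.01 with the array median, -0.92 with quantile normalization, -0.90 with the percentile over detected probes, -1.10 with the authors' scaling, -0.89 with the mean over probes and -0.92 relative to all genes. Against vehicle (-0.96) it was -1.02 with the array median, -0.85 with quantile normalization, -0.88 with detected probes and -0.91 relative to all genes. For TGF-β1 (-0.06) it was 0.039 with the authors' scaling and -0.018 relative to all genes. For the knockout (0.34) it was 0.29 with quantile normalization, 0.30 with detected probes, 0.15 with the authors' scaling and 0.38 with the mean over probes. Between the clones (0.09) it was 0.13 with normexp, 0.24 with quantile normalization, 0.13 with detected probes, 0.41 with the authors' scaling and 0.14 relative to all genes.

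With 1 clone left out there is no residual degree of freedom and so no test: genes at 2-fold numbered 763 without clone 1 and 855 without clone 2, members at 2-fold 3 (Tm7sf2, Lss and Insig1) without clone 1 and 0 without clone 2, and the members' median was 0.33 and 0.38. Knockout differences that changed sign, with no call in either case, were Ebp (-0.059) with quantile normalization, and Idi1 (-0.069), Hsd17b7 (-0.062), Ebp (-0.12) and Srebf1 (-0.036) with the authors' scaling. With 1 clone left out, Idi1 ranged from -0.070 to 0.33, Hsd17b7 from -0.52 to 0.78, Ebp from -0.014 to 0.17, Srebf2 from -0.29 to 0.14, Fasn from -0.48 to 0.056 and Fads2 from -0.17 to 0.0695. The causes were not tested, beyond the fewer genes of the stricter filter and the constants of the authors' scaling. The planned normexp on mean signals was not run, since the files used here hold median signals. No paired analysis was possible because the groups share only replicate number 1. With 1 array a condition, 0 genes in the wild-type comparisons have a replicate check.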
